A study of Mus musculus with 2 samples.

Results

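The miRNAs described here are the mouse miRNAs with numbers above 1000, as found in exosomes of mesenchymal stem cells and of NIH3T3 fibroblasts. miRNAs are numbered in the order in which they were catalogued, so these entries came late, mostly from deep sequencing. A miRNA entered the set if its name carried a number above 1000 and it reached 100 CPM, counts scaled to the library's own miRNA total, in at least 1 library. The miR-3473 and miR-3074 entries, miR-7667-5p and miRNAs of the imprinted region on chromosome 12 between 109500000 and 109800000 were left out. This gave 66 of the 318 miRNA entries at or above that level, and of 1214 miRNA entries in all. Because the level itself chose the members, their levels and ratios are given as a description, with no test.

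One library came from exosomes of mesenchymal stem cells (MSCs) of C57BL/6 mice, and 1 from exosomes of NIH3T3 cells, the control, an immortalised fibroblast line whose strain is given as NIH Swiss. Both cell types spent 72 hours in αMEM with 5% serum. The tissue the MSCs came from, their passage, the age of the donor mice and any depletion of serum vesicles were not given in the sources used here. With 1 library per group no difference has a replicate check, and cell type and mouse strain cannot be told apart. Fewer vesicles of a kind and less RNA per vesicle cannot be told apart either.

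Most classical miRNAs are cut from a long primary transcript by Drosha in the nucleus and then by Dicer in the cytoplasm. Many late entries are known or proposed to arise in other ways. In a mirtron the ends of the hairpin are set by splicing of a short intron, which replaces the cut by Drosha; in a tailed mirtron only 1 end is, and the rest of the intron is trimmed away. Small nucleolar RNAs (snoRNAs), which guide the chemical modification of ribosomal RNA, and tRNAs also give fragments of miRNA size, some of which were catalogued as miRNAs. Exosomes carry such fragments beside miRNAs.

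The mature sequences of the most abundant members, and of those with the largest ratios, are shown to identify them, since few have a known function. They come from RefSeq on GRCm38.p6, the same coordinates as mm10, and run 5′ to 3′ with the seed, bases 2 to 8, in capitals. Sequences matched by name and position for 57 of the 66 members.
miR-2137 (chrX:72992113-72992133, + strand): gCCGGCGGgagccccagggag
miR-7648-5p (chr15:90224360-90224379, + strand): cCGCGUUCcgggcucggcgc
miR-6416-3p (chr7:64249989-64250009, - strand): gCAAAGAGcagcaaaaggaag
miR-5121 (chr7:45126925-45126945, - strand): aGCUUGUGaugagacaucucc
miR-7021-5p (chr4:143136136-143136157, - strand): aUAGGAGUugauuacagagcaa
miR-1903 (chr8:128359251-128359272, + strand): cCUUCUUCuucuuccugagaca
miR-6537-5p (chr7:25097120-25097141, - strand): gUGAGUUUcucccacuggugac
miR-5135 (chr12:76533143-76533166, - strand): aGGUCUAGguggcaagggcguccu
miR-3090-3p (chr2:133564760-133564781, + strand): uCCCAGGUgacacccugacuca
miR-6993-5p (chr19:10191380-10191402, + strand): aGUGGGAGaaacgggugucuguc
The 57 sequences had 57 different seeds, so no members formed a seed family among themselves. One, miR-6915-5p, shared its seed with another miRNA at or above 100 CPM, miR-540-3p.

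The full RefSeq hairpins of 3 miRNAs at intron ends are given, with the mature miRNA in capitals, to show where the hairpin lies against the annotated intron.
Mir1981 in Marc2 (chr1:184822407-184822488, - strand): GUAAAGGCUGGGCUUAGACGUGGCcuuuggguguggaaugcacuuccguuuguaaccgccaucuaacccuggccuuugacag
Mir6975 in Ddx39b (chr17:35244075-35244135, + strand): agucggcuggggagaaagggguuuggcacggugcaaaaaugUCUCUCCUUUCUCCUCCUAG
Mir6976 in Srf (chr17:46553827-46553889, - strand): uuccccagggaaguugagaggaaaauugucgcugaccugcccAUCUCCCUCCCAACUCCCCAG
The 82 bases of Mir1981 were the whole annotated intron, from its first GU to its last AG. The other 2 hairpins ended with the last AG of a longer intron, and the mature 3p miRNA ended there too.

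The libraries differed in depth. The MSC library held 1028186 miRNA counts and the NIH3T3 library 431007, so that 100 CPM stood for 103 and 43.1 raw counts. A count of 0 allowed up to 2.92 and 6.96 CPM, in the same order. All 7 mesenchymal and fibroblast marker miRNAs were in the table, and their summed level was 249358 CPM in MSC and 186243 CPM in NIH3T3 exosomes. Most of it was miR-199a-3p, an entry merged with miR-199b-3p, at 167562 and 154264 CPM. Of the other marker lists, the hepatocyte miRNA miR-122-5p stood at 9491 and 8088 CPM, and whether it came from the serum was not tested. Leukocyte markers summed to 220 and 387 CPM and the endothelial miR-126a-3p stood at 328 and 717 CPM. Among the leukocyte markers only miR-142a-3p was higher in NIH3T3 exosomes, at 118 and 329 CPM. miR-223-3p, at 81.7 and 39.4 CPM, and miR-142a-5p, at 20.4 and 18.6 CPM, were not. Red blood cell markers summed to 178 and 281 CPM, with miR-144-3p not listed. Epithelial markers summed to 49.6 and 46.4 CPM, with miR-200a-3p, miR-200c-3p and miR-141-3p not listed. Muscle markers summed to 7251 and 501 CPM, nearly all of it miR-206-3p, with miR-1a-3p not listed. Of the neural markers miR-9-5p stood at 20.4 and 747 CPM and miR-124-3p was not listed. The part of these markers in the results below was not tested.

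Together the 66 miRNAs made up a small share of the exosomal miRNA, 2.14% of miRNA counts for MSCs (95% Wilson interval 2.11 to 2.17) against 1.11% for NIH3T3 cells (1.08 to 1.15). These and the intervals below cover counting error only, and are too narrow even for that if the counts are reads with PCR copies among them. In raw counts the members ran from 17 to 3249 in the MSC library, with a median of 172.5, and from 1 to 1724 in the NIH3T3 library, with a median of 29.5. The 10 most abundant held 56.7% of the members' counts in MSC and 63.7% in NIH3T3 exosomes, and 4 miRNAs were among the 10 in both libraries. Between the libraries the members' counts had a Spearman rho of -0.06, against 0.59 across the 245 miRNAs numbered up to 1000 over the same minimum, let-7 included. Both correlations are across miRNAs, which are not replicates, and a minimum in either library lowers a correlation among entries close to it.

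**Figure D1:**
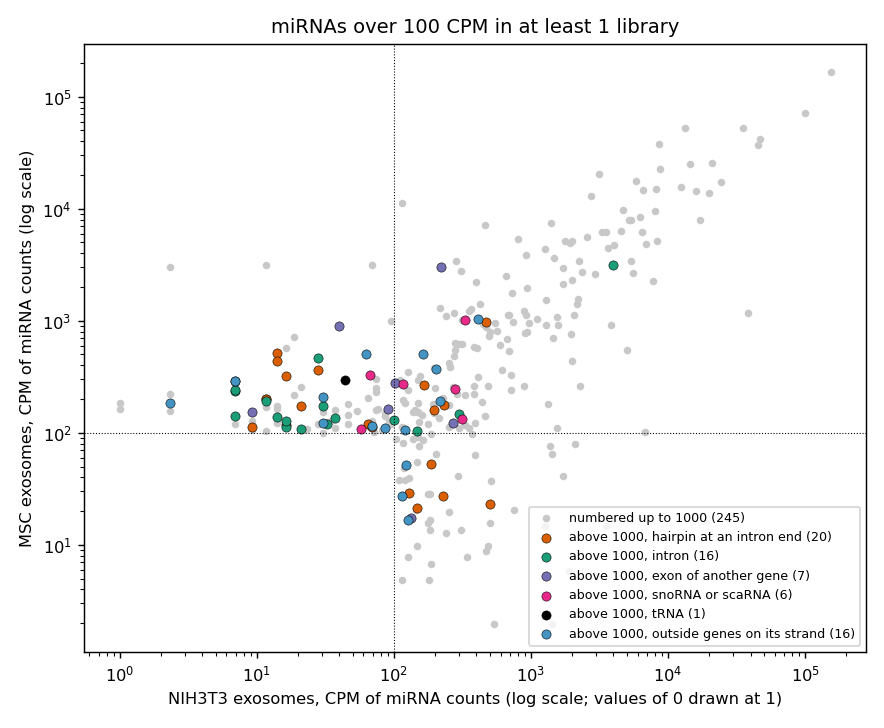
Level of each miRNA in NIH3T3 exosomes (horizontal axis) and MSC exosomes (vertical axis), in CPM of the library's miRNA counts on log axes; grey points are the 245 miRNAs numbered up to 1000, coloured points the 66 numbered above 1000 by annotated position, and dotted lines mark 100 CPM. The coloured points gather near the minimum, 38 of them to the left of the vertical line and above the horizontal one, and only miR-2137 lies beyond 1000 CPM in both libraries.

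The ratio of MSC over NIH3T3 exosomes was taken on the authors' deposited scale after adding 0.734, which is 1 CPM of the mean miRNA total, and a difference of 2-fold or more was called higher or lower. On this rule 37 of the 66 were higher in MSC exosomes, 12 were lower and 17 lay within 2-fold. Over all 318 miRNAs, 34.0% were higher, 26.1% lower and 39.9% within 2-fold, against 56.1%, 18.2% and 25.8% of the 66. Among miRNAs numbered up to 1000 the shares were 28.2%, 27.8% and 44.1%. The median log2 ratio was 1.39 for the members and 0.28 for all 318 miRNAs, and the members ranged from -4.60 to 5.61. The counting interval lay wholly beyond 2-fold for 31 of the higher members (47.0% of the 66) and 9 of the lower ones (13.6%). Over all 318 these shares were 27.4% and 22.6%, and among miRNAs numbered up to 1000 they were 22.4% and 24.5%. By number, the 35 members from miR-6000 upwards held 21 of the higher and 8 of the lower ones.

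These counts were bound up with the level that chose the members. Of the 66, 38 reached 100 CPM in the MSC library alone, and 31 of these were higher and 0 lower. Another 9 reached it in the NIH3T3 library alone, and all 9 were lower. The 19 that reached it in both libraries split into 6 higher, 3 lower and 10 within 2-fold, with a median log2 ratio of -0.40. The same split of calls is not given for other miRNAs, so these counts are not read as particular to the late-numbered ones. Among miRNAs numbered up to 1000, 151 of 245 reached the minimum in both libraries, so that a larger share of the late-numbered ones reached it in 1 library alone. This need not mean a large difference, since many members lay close to the minimum. miR-1198-5p, for example, reached it in the MSC library alone, at 131 CPM in MSC and 99.8 CPM in NIH3T3 exosomes. The 573 late-numbered miRNAs under the minimum gave 105 higher, 142 lower and 326 within 2-fold, with a median of -0.15, and together held 1.28% of miRNA counts in MSC and 1.27% in NIH3T3 exosomes. Each of these had fewer than 103 counts for MSCs and 43.1 for NIH3T3 cells, so single calls among them are uncertain. Just inside the minimum were miR-3068-3p (108 and 58.0 CPM in MSC and NIH3T3 exosomes), miR-1960 (109 and 20.9 CPM) and miR-5126 (110 and 85.8 CPM). Just outside were miR-1843a-3p (99.2 and 67.3 CPM), miR-6378 (89.5 and 97.4 CPM) and miR-3057-5p (97.3 and 83.5 CPM).

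**Figure D2:**
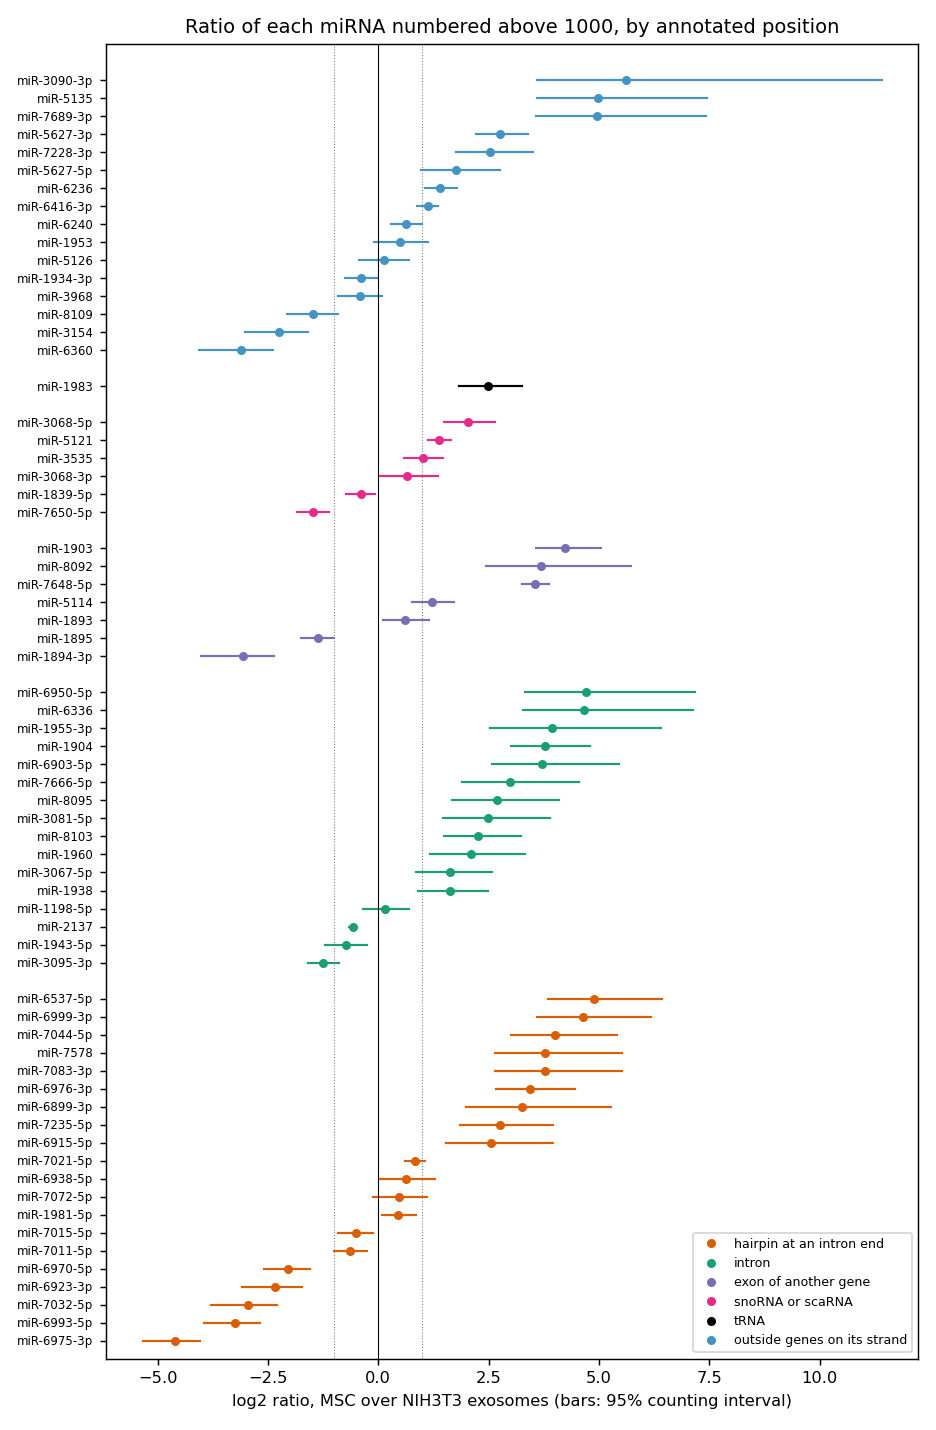
The log2 ratio of MSC over NIH3T3 exosomes (horizontal axis) for each of the 66 miRNAs, grouped by annotated position; points are ratios with the added constant, bars the 95% counting interval, and dotted lines the 2-fold bounds. Each group of more than 1 member reaches from below 0 to above 0, from -4.60 for miR-6975-3p to 5.61 for miR-3090-3p.

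By annotated position, 20 of the 66 had a hairpin that ended within 2 bases of an intron end, and 16 lay elsewhere in introns. A further 7 lay in an exon of another gene on the same strand, 6 in a gene annotated as a snoRNA or scaRNA (small Cajal body RNA), 1 in a tRNA and 16 outside genes on their strand. Hairpins at intron ends were 30.3% of the members, 46.1% of the late-numbered miRNAs under the minimum and 1.22% (3 of 245) of those numbered up to 1000. snoRNA and scaRNA positions were 9.09% of the members, 1.22% of the late-numbered ones under the minimum and 0.408% of the earlier ones. Calls by class, given below, depend on the same choice by level and are a description. Over all 318 miRNAs of any class, 34.0% were higher and 26.1% lower.

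**Figure D3:**
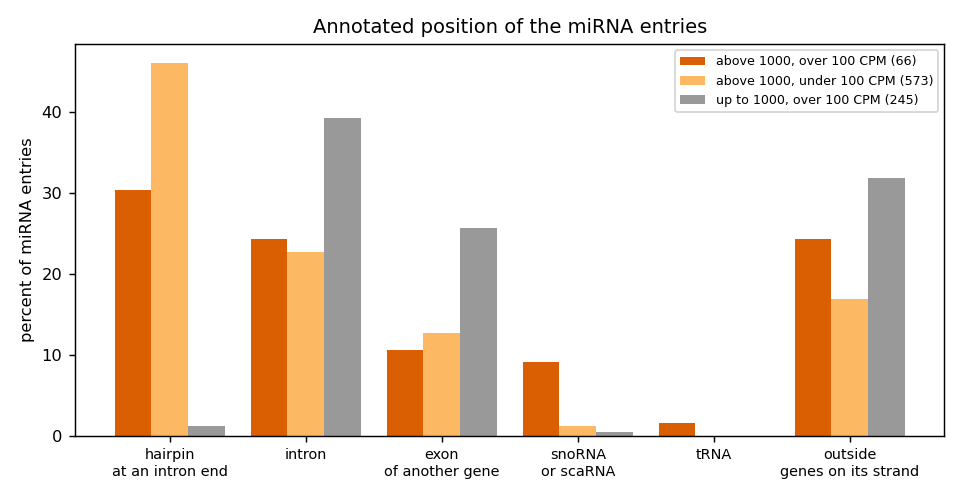
Percent of miRNA entries (vertical axis) in each class of annotated position, for the 66 miRNAs numbered above 1000 and at least 100 CPM, the 573 numbered above 1000 below that level, and the 245 numbered up to 1000 at or above it. Hairpins at an intron end make up 30.3%, 46.1% and 1.22% of the 3 sets.

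Of the 20 intron-end miRNAs, 17 had a hairpin that ended within 2 bases of the 3′ end of the intron, 3 had both ends at splice sites and 0 ended at the 5′ end alone. The hairpin of miR-6537, 1 of the 17, ran 34 bases past the 5′ end of its intron into the exon, which is not the layout of a tailed mirtron. They came from 20 different genes, in introns of 67 to 36269 bases, and 19 were numbered 6000 or above. In MSC exosomes 9 were higher, 5 were lower and 6 lay within 2-fold. All 9 higher ones reached 100 CPM in the MSC library alone, and all 5 lower ones in the NIH3T3 library alone. These calls were thus bound up with the choice of members. Among the 6 named for the 3p arm, 4 were higher and 2 lower. Of these 6, 5 ended on the last base of the intron, and all 4 of those with a RefSeq sequence ended in AG.

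Among the intron-end miRNAs higher in MSC exosomes, miR-6537-5p from Pou2f2, which encodes a lymphoid transcription factor, had 527 counts for MSCs and 6 for NIH3T3 cells. It was 29.4-fold higher (log2 ratio 4.88, interval 3.84 to 6.42), and its first base was the first base of a 75-base intron. For miR-6999-3p, from the gene of the lipid kinase Dgkz, the counts were 447 and 6 (log2 ratio 4.64, 3.60 to 6.18), and for miR-7044-5p, from Rasgef1a, 331 and 7, which is 16.0-fold higher. miR-6976-3p lies in Srf, which encodes a transcription factor that drives cytoskeletal and muscle genes, and had 377 and 12 counts (3.44, 2.66 to 4.45). The MSC library was the higher one in each of these 4, by more than 10-fold, and each had at most 12 NIH3T3 counts. miR-7083-3p of Dock6 and miR-7578 of Brd3, the gene of a chromatin reader, each had 208 and 5 counts (3.79, 2.64 to 5.53). The other 3 higher ones, miR-7235-5p of Tbkbp1 (178 and 9 counts), miR-6915-5p of Ankrd52 (120 and 7) and miR-6899-3p of Klf7 (117 and 4), had log2 ratios of 2.76, 2.54 and 3.26.

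On the other side, miR-6975-3p had 24 counts for MSCs and 216 for NIH3T3 cells, the lowest ratio of all members. It was 24.2-fold lower in MSC exosomes (log2 ratio -4.60, -5.33 to -4.05) and comes from Ddx39b, which encodes an RNA helicase of splicing and mRNA export. miR-6993-5p, from the fatty acid desaturase gene Fads1, had 28 and 98 counts (-3.25, -3.96 to -2.68). The NIH3T3 library was thus higher for both, although it was the shallower one. miR-7032-5p of the endocytic adaptor gene Hip1r had 22 and 63 counts (-2.95, -3.78 to -2.29), and miR-6923-3p, the last bases of a 72-base intron of the embryonic myosin gene Myh3, had 30 and 56 (-2.35, -3.08 to -1.73). miR-6970-5p, from a 67-base intron of the RNA helicase gene Skiv2l, had 54 and 80 (-2.03, -2.58 to -1.54).

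miR-7021-5p of Prdm2, a gene of a histone methyltransferase, had 1008 counts for MSCs and 202 for NIH3T3 cells. It was the most abundant intron-end miRNA in the MSC library and came after miR-6975-3p in the other. Its log2 ratio of 0.83 (0.61 to 1.05) lay within 2-fold. It was above the bound, at 1.06, on the scale of CPM, and at 1.05 when piRNA entries were added to the totals. miR-1981-5p, the mirtron whose hairpin is shown above, had 277 and 72 counts and also lay within 2-fold (0.45, 0.08 to 0.85). Within 2-fold too were miR-7011-5p (181 and 100 counts) and miR-7015-5p (165 and 84 counts), with slightly lower levels in MSC exosomes. Both had intervals wholly below 0 (log2 ratios -0.63, -0.99 to -0.27, and -0.51, -0.90 to -0.12). miR-6938-5p of Mlh3 (123 and 28 counts) and miR-7072-5p of Nlrc5 (117 and 30) lay within 2-fold at 0.64 and 0.47. A further pair of hairpins, picked out after their values were seen, ran past the intron end and were counted as intronic: those of miR-6950-5p in Loxl2, which encodes an enzyme that cross-links collagen, with 249 and 3 counts (4.71, 3.32 to 7.17), and of miR-6903-5p in the calcium pump gene Atp2b4, with 198 and 5 (3.72, 2.57 to 5.46).

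Of the 16 miRNAs elsewhere in introns, 12 were higher in MSC exosomes, 1 was lower and 3 lay within 2-fold. All 12 higher ones reached 100 CPM in the MSC library alone, so their calls were bound up with the choice of members. miR-2137, in an intron of Zfp185, was the most abundant of all 66 in both libraries, at 3249 counts for MSCs and 1724 for NIH3T3 cells. That is 3160 and 4000 CPM, or rank 50 and rank 37 among all miRNA entries. Its log2 ratio was -0.58 (-0.66 to -0.49), so that it was somewhat lower in MSC exosomes and within 2-fold. It held 14.8% of the members' counts in MSC and 35.9% in NIH3T3 exosomes, and without it the share of the set was 1.82% and 0.714% of miRNA counts.

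miR-1904, in an intron of the phosphodiesterase gene Pde4d, had 478 counts against 12 in NIH3T3 exosomes (log2 ratio 3.78, 3.01 to 4.79). miR-6336 of the receptor gene Lrp1b had 242 and 3 (4.67, 3.28 to 7.13), and miR-1955-3p of Phf21a had 145 and 3 (3.94, 2.53 to 6.40). With 3 counts, the latter pair stood at 6.96 CPM in the NIH3T3 library, the limit that a count of 0 allows there, and their intervals are wide upwards. Higher too were miR-7666-5p of Fgf20, miR-8103 of Osbpl7, miR-8095 of Dgkg, miR-3081-5p of Boc, miR-1960 of Hadhb, miR-3067-5p of Smoc1 and miR-1938 of Ifrd1, with log2 ratios from 1.62 to 2.98 and 6 to 16 NIH3T3 counts. The 1 lower member, miR-3095-3p, lies in the lysophosphatidic acid receptor gene Lpar1 and had 151 and 128 counts (-1.25, -1.60 to -0.90). miR-1198-5p, from Gripap1, had 135 and 43 counts and lay close to even (0.16, -0.34 to 0.69). miR-1943-5p of Tmem184b had 106 and 63 counts (-0.73, -1.20 to -0.27) and was called lower only when ratios were centred (-1.01).

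The 7 miRNAs in exons of other genes split into 4 higher, 2 lower and 1 within 2-fold. Its largest member was miR-7648-5p. This miRNA, in an exon of the glycosyltransferase gene Alg10b, was the second most abundant member in MSC exosomes, with 3132 counts against 95. This is an 11.7-fold difference (log2 ratio 3.55, 3.26 to 3.86), from rank 52 to rank 163 among all miRNA entries. miR-1903, in an exon of Nrp1, which encodes a coreceptor for semaphorins and VEGF, had 921 and 17 counts, 18.9-fold higher (4.24, 3.58 to 5.06). Its levels were 896 and 39.4 CPM. miR-8092 of Zfp518a had 159 and 4 counts (3.70, 2.44 to 5.72), and miR-5114 of the stearoyl-CoA desaturase gene Scd2 had 287 and 44 (1.21, 0.75 to 1.71). The call of miR-5114 was lost when ratios were centred (0.93).

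miR-1894-3p, in the phosphatase regulator gene Ppp1r10, went the other way, with 18 counts for MSCs and 57 for NIH3T3 cells (-3.08, -4.01 to -2.37). miR-1895, in the antisense RNA gene Gm26691, had 126 and 116 (-1.36, -1.75 to -0.99). miR-1893 of Epc1 had 167 and 39 and lay within 2-fold (0.60, 0.10 to 1.15). The exons of Nrp1 and Ppp1r10 that hold miR-1903 and miR-1894-3p belong to transcripts with a retained intron. Fragments of the host RNA have the sequence of these miRNAs, so counts of the miRNA and of such fragments cannot be told apart. The same holds for miR-7011-5p, classed at an intron end, which overlaps an exon of Sema4a and shares 18 or more bases with its transcripts. miR-6970-5p and miR-7578, of the same class, overlap exons of Skiv2l and Brd3 at least in part. Beyond their own position, 5 members shared 18 or more bases with annotated transcripts of other genes. miR-1895 did so with 5 genes, miR-5126 with 2, and miR-1953, miR-6899-3p and miR-7578 with 1 each.

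The 6 miRNAs in snoRNA or scaRNA genes had a median log2 ratio of 0.83, with 3 higher, 1 lower and 2 within 2-fold. miR-5121 lies within Snord33, a box C/D snoRNA hosted by the ribosomal protein gene Rpl13a, and had 1041 counts against 142 in NIH3T3 exosomes (1.38, 1.13 to 1.65). miR-3535, in a snoRNA within the nucleolin gene Ncl, had 283 and 50 (1.01, 0.57 to 1.48), at the bound itself. It was no longer called higher when ratios were centred (0.73) or the 10 most abundant miRNAs of each library were left out of the scaling (0.84), or with an added constant of 10 CPM (0.96).

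miR-7650-5p, in a snoRNA of Taf1d, had 137 counts for MSCs and 136 for NIH3T3 cells, which is lower in MSC exosomes once depth is counted in (-1.47, -1.83 to -1.13). miR-1839-5p, in a scaRNA, had 255 and 120 (-0.40, -0.72 to -0.08). The letters UGAUGA, the core of the C box of box C/D snoRNAs, were searched for on the miRNA strand. They were found in 2 of the 57 sequences, miR-3535 and miR-5121, in 0.399% of late-numbered sequences under the minimum and in 0.926% of earlier ones. miR-1983 overlaps the isoleucine tRNA gene n-TItat14 and had 303 and 19 counts (2.48, 1.84 to 3.26).

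Of the 16 miRNAs outside genes on their strand, 8 were higher in MSC exosomes, 3 lower and 5 within 2-fold. miR-6416-3p, antisense to the channel gene Trpm1, had 1073 and 176 counts (1.12, 0.89 to 1.36), the third highest of the members for MSCs and the fourth for NIH3T3 cells. Its call was lost when ratios were centred (0.84) and when the 10 most abundant miRNAs were left out of the scaling (0.95). miR-3090-3p had the largest ratio of all members, with 191 counts against 1 in NIH3T3 exosomes (5.61, 3.59 to 11.40). Next in size were miR-5135 with 301 and 3 counts (4.98, 3.60 to 7.44) and miR-7689-3p with 296 and 3 (4.96, 3.57 to 7.42), both antisense to a gene, Plekhg3 and Sorcs2. All 3 had ample counts in the MSC library and at most 3 in the NIH3T3 library.

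The GC-rich miR-6236 had 523 counts for MSCs and 70 for NIH3T3 cells (1.41, 1.05 to 1.79), and miR-6240 had 383 and 88 (0.63, 0.29 to 0.98). Whether either shares bases with ribosomal RNA that the annotated transcripts lack was not tested, so counts from such fragments cannot be told apart. The search had the same limit for every member, the GC-rich miR-2137, miR-7648-5p, miR-8109 and miR-5126 included. miR-6360, antisense to Mapre2, had 17 and 55 (-3.10, -4.06 to -2.38), and miR-8109, 95.2% G and C, had 53 in each library (-1.47, -2.07 to -0.91). miR-3154 lies antisense to the dynamin gene Dnm1 and had 28 and 49 counts (-2.25, -3.02 to -1.60). It sits 146 bases from miR-199b-5p, an earlier miRNA of the same strand, which had 269 and 382 counts (-1.99, -2.23 to -1.77). Both were thus lower in MSC exosomes. The 3p entry of that hairpin, merged with miR-199a-3p, had a log2 ratio of -0.12. Of the 66, 4 had another miRNA hairpin of the table within 10000 bases on their strand, and miR-3154 was the only one of the 4 with a neighbour at or above 100 CPM.

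The arms of a hairpin come from the same precursor, so their ratios can be set side by side. For 24 hairpins 1 arm was a member and the other was in the table below 100 CPM in both libraries, and for 2 hairpins both arms were members. Both arms of miR-5627, whose 5p arm lies antisense to the chaperone gene Dnajb9, were higher in MSC exosomes, with 516 against 27 counts for the 3p arm (2.75, 2.21 to 3.38) and 127 against 13 for the 5p arm (1.77, 0.97 to 2.75). Of the arms of miR-3068, in a gene annotated as a snoRNA, the 5p arm had 335 and 29 counts (2.03, 1.49 to 2.64) and the 3p arm 111 and 25 (0.65, 0.02 to 1.35), within 2-fold.

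In the 24 hairpins the member was the more abundant arm in all 24 in the MSC library and in 18 of 24 in the NIH3T3 library. Where the member was higher in MSC exosomes, in 12 hairpins, the other arm was higher in 2, within 2-fold in 7 and lower in 3. These other arms had 6 to 20 counts for MSCs and 0 to 21 for NIH3T3 cells, so single ratios among them are uncertain. One of the 2, miR-7228-5p, had 12 and 0 counts, and its ratio rests on the added constant. The share of a hairpin's counts on the member arm does not depend on how the libraries are scaled, and its Wilson intervals did not overlap between the libraries in 13 of 24 hairpins (54.2%), with the share larger in MSC exosomes in 9 and in NIH3T3 exosomes in 4. All 9 were members called higher in MSC exosomes, so this split follows the choice of members. Over all 98 hairpins with 1 arm at or above 100 CPM and the other below it, 44.9% did not overlap, and among the 73 with a number up to 1000 it was 41.1%, at higher counts of the abundant arm (median 430 and 189, against 155 and 36.5 for the 24). The share was larger in MSC exosomes in 26 and in NIH3T3 exosomes in 18 over all hairpins, and in 16 and 14 for numbers up to 1000.

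For miR-6537, 97.1% of counts were on the 5p arm for MSCs (95.3 to 98.2) against 37.5% for NIH3T3 cells (18.5 to 61.4), where the arms had 6 and 10 counts. For miR-6999, the 3p arm held 98.7% (97.1 to 99.4) and 35.3% (17.3 to 58.7). The reverse held for miR-6993, whose 5p arm took 57.1% for MSCs (43.3 to 70.0) against 96.1% for NIH3T3 cells (90.3 to 98.5). The partner arms had few counts: 16 and 10 for miR-6537-3p (log2 ratio -0.77, -2.04 to 0.49), 6 and 11 for miR-6999-5p (-2.17, -4.08 to -0.80) and 21 and 4 for miR-6993-3p (0.84, -0.66 to 2.91). Of these partners, miR-6999-5p was called lower and the others lay within 2-fold. Since members were chosen for a high level, the more abundant arm is part of that choice, and these shares are a description.

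**Figure D4:**
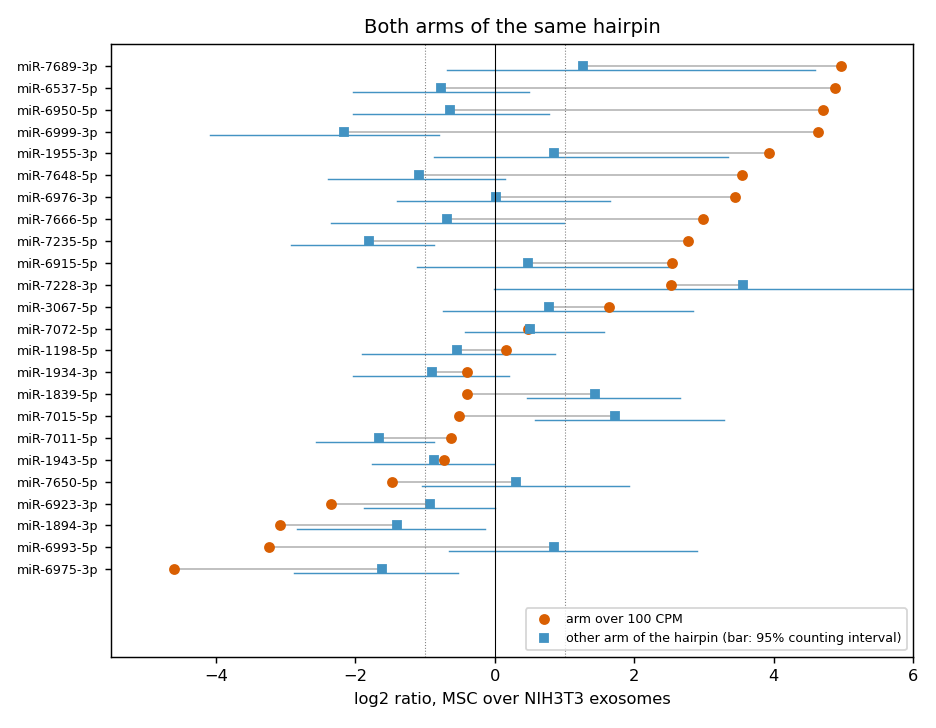
The log2 ratio of MSC over NIH3T3 exosomes (horizontal axis) for both arms of the 24 hairpins with 1 arm at or above 100 CPM (circles, named on the vertical axis) and the other below it (squares, with the 95% counting interval as a bar). For miR-6537 the arms stand at 4.88 and -0.77, and for miR-6993 at -3.25 and 0.84; the interval of the other arm of miR-7228 runs past the right edge.

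In base composition the members ranged from 36.4% G and C for miR-7021-5p to 100% for miR-5126, with a median of 56.5%. The median was 57.1% for the late-numbered miRNAs under the minimum and 47.8% for the earlier ones. Across the 57 sequences G and C content and the ratio had a Spearman rho of -0.10 (a description over miRNAs that share both libraries). Lengths ran from 17 to 26 bases, and 73.7% of members were 21 to 23 bases long, against 92.6% of the earlier miRNAs. The first base was U, which Argonaute proteins favour, in 14 of 57 members (24.6%), in 43.1% of late-numbered miRNAs under the minimum and in 43.1% of the earlier ones. Predicted folding energy was close in the sets, with a median of -0.41 kcal/mol per base over the 52 members with a RefSeq hairpin and -0.44 over 200 earlier miRNAs.

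The letters GGAG, part of a motif that has been linked to loading of miRNAs into exosomes in T cells through the RNA-binding protein hnRNPA2B1, were searched for on the miRNA strand. They occurred in 17 of 57 members (29.8%), in 23.2% of the late-numbered miRNAs under the minimum and in 10.2% of the earlier ones. The median log2 ratio was 0.47 for members with these letters and 1.70 for those without. Of the members higher in MSC exosomes 6 of 32 with a sequence held them, of the lower ones 5 of 9 and of those within 2-fold 6 of 16. These values depend on the choice of members by level. They are not set against the same values for other miRNAs, so no link of the letters to the ratio is drawn. The letters CCCU were searched for in the same way. Their holders were miR-5627-3p (log2 ratio 2.75), miR-6976-3p (3.44), miR-3090-3p (5.61) and miR-5627-5p (1.77). Each was higher in MSC exosomes, and each reached 100 CPM in the MSC library alone, so these calls were bound up with the choice of members. miR-5627-3p and miR-5627-5p are also arms of the same hairpin, and no direction is read from so few entries. Both libraries are exosomal and no cellular RNA was analysed here, so these values say nothing of loading.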

How the data were processed

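Small RNA was measured in 1 exosome library of MSCs and 1 of NIH3T3 cells. Per the labels' protocols, RNA was taken from culture supernatant with an exoRNeasy kit and libraries were made with a QIAseq miRNA kit. Per the file headers, the authors deposited raw counts and normalized values. The deposited log2 values above 0 equalled log2 of the count times 0.655 (MSC) or 1.84 (NIH3T3). How the authors chose these factors, which aligner and counter they used, and whether reads or molecular identifiers were counted is not stated. The protocols also mention a microarray; the whole numbers were treated as sequencing counts. The submitters' processing notes name the mm10 build. Every entry had 10 or more counts in at least 1 library. Total counts were 2500459 and 1037147, piRNA entries included.

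Ratios, exact conditional intervals (Clopper-Pearson, 95%) and Wilson intervals were computed with Python 3.11.15 and SciPy 1.17.1, without a test, and were tested on simulated data. Positions of the table were set against GENCODE M21, tRNA genes and sequences came from RefSeq (GRCm38.p6), and hairpins were folded with RNAfold 2.7.2. snoRNA or scaRNA exons took precedence, then tRNAs, intron ends, exons and introns. GENCODE M21 transcripts were searched for 18-base matches, so RNA missing from that annotation was not covered. The rule for named miRNAs took the top 10 by level per library, the 10 largest ratios per direction, hairpins with both arms as members, shared seeds, up to 5 per position class and the 3 on each side of the minimum. Other members were named after their values were seen, to complete a class or a count. Members and lists were chosen with earlier results of these data known. Alternatives were other scalings, added constants, minimum levels, subsets and a stricter size rule.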

Additional observations from a re-analysis of the deposited data

How the results depend on the processing

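Counts of called members moved little with scaling. Of 49 called members, all 49 kept their sign under each of 6 scalings and constants, and 46 or more kept their call. Scaling by the miRNA total gave 38 higher and 12 lower with a median log2 ratio of 1.63, scaling by all entries a median of 1.61, centring 34 higher and 13 lower with 1.12, scaling without the 10 most abundant miRNAs 1.23, and an added constant of 10 CPM 1.36. The balance of higher and lower members changed with the minimum level, which was varied on the deposited scale. At 10 CPM the set grew to 619 miRNAs, with 140 higher, 154 lower, a median of -0.10 and shares of 3.40% and 2.38% of miRNA counts in MSC and NIH3T3 exosomes. At 1000 CPM it shrank to 4, with 3 higher, 0 lower, a median of 1.25 and shares of 0.826% and 0.496%. The calls over all miRNAs at these other levels are not given here. The change of balance is therefore not read as particular to the late-numbered miRNAs. Entries in same-strand exons of other genes were also left out, those of the snoRNA, scaRNA and intron-end classes included. The 50 miRNAs that remained had a median of 1.70 and shares of 1.42% and 0.868%. No member had more than 1 position. No paired analysis was possible because each group has 1 library. Depth limits the low side: 20 members had under 10 counts in the NIH3T3 library.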
